A study of Homo sapiens with 8 samples.

Results

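The BCL2 family genes decide, through the proteins they encode, whether the outer membrane of the mitochondrion is kept whole or opened during apoptosis. Their transcripts were followed in prostate cancer cells exposed to hydrogen peroxide. The 10 members were chosen by symbol, and all 10 were found among the 58828 genes of the count tables. They were the anti-apoptotic BCL2, BCL2L1 (BCL-XL) and MCL1, the effectors BAX and BAK1, and the BH3-only genes BCL2L11 (BIM), BID, BAD, BIK and BMF.

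As background, the effectors BAX and BAK1 form the pores that release cytochrome c, and the anti-apoptotic proteins bind and hold them. BH3-only proteins sense damage or loss of growth signals and either occupy the anti-apoptotic proteins or activate the effectors directly. Much of this control is exerted on the proteins, by cleavage, phosphorylation and degradation, which a read count does not measure. MCL1 in particular is a short-lived protein that has to be made continuously. DU145 cells are known for making no BAX protein, although the gene is transcribed.

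The study used 8 RNA-seq libraries, 1 for each combination of cell line (22RV1 or DU145), construct (empty vector or PAGE4) and treatment (PBS or H2O2). 22RV1 is a prostate carcinoma line grown from a xenograft, and DU145 is a prostate carcinoma line from a brain metastasis. PAGE4 is a cancer/testis antigen, delivered as a tagged open reading frame in a lentiviral, doxycycline-inducible vector, and all cells, controls included, were transduced, selected with puromycin as a surviving pool and given doxycycline. Cells received 200 mM H2O2, as the labels give the dose, or PBS, and were collected 12 h later. Each construct was 1 culture per line, so an effect of PAGE4 and a difference between cultures cannot be told apart, and no condition had a replicate.

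Total counts ran from 25482984 to 43310401 per library, with a median of 29843277. PAGE4 had 0 to 1 count in the 4 vector libraries and 1001 to 1489 counts in the 4 PAGE4 libraries. All 8 markers of 22RV1 cells, KLK2 and HOXB13 among them, were higher in every 22RV1 library than in any DU145 library, and their summed level in 22RV1 was 2109 to 2298 CPM (counts scaled to the library's total) with PBS and 866 to 1150.1 with H2O2. Of 8 markers of DU145 cells, 5 were higher in every DU145 library (VIM, CAV1, CAV2, AXL and ANXA1). KRT5 had at most 0.08 CPM in any library. CD44 and LGALS1 overlapped and leaned the other way. LGALS1 had 80.6 to 144.7 CPM in 22RV1 and 44.9 to 103.1 in DU145, and CD44 had 92.7 to 236.4 and 74.6 to 161.7. The summed level of the 8 DU145 markers was 1295 to 1552 CPM in DU145 and 222 to 365 CPM in 22RV1.

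By the GENCODE v44 annotation of GRCh38, the members lie on 9 chromosomes. BCL2 is at chr18:63123346-63320128, BCL2L1 at chr20:31664452-31723989 and MCL1 at chr1:150560895-150579738, all on the minus strand. BAX is at chr19:48954815-48961798 on the plus strand and BAK1 at chr6:33572547-33580293 on the minus strand. Of the BH3-only genes, BCL2L11 at chr2:111119378-111168444 and BIK at chr22:43110750-43129712 are on the plus strand. BID at chr22:17734138-17774770, BAD at chr11:64269830-64284704 and BMF at chr15:40087890-40108892 are on the minus strand. Strand use in the counting was not given in the sources used here, so reads in shared exons cannot be told apart. ABALON covers 41.34% of the exon length of BCL2L1 on the opposite strand, GPR137 covers 23.65% of that of BAD, and MIR4435-2HG covers 10.78% of that of BCL2L11. BMF-AS1 covers 8.46% of BMF, ADAMTSL4-AS1 covers 5.27% of MCL1 and GGNBP1 covers 4.11% of BAK1. The values of these 6 members are uncertain for that reason, and the share of reads concerned was not measured. ABALON itself had 32 to 173 raw counts and MIR4435-2HG had 0 to 28 in 22RV1 and 693 to 879 in DU145. GPR137 had lower raw counts with H2O2 than with PBS in 4 of 4 pairs (1131 to 1848 against 2426 to 2698 in 22RV1, and 744 to 820 against 1045 to 1170 in DU145).

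The 250 bases upstream of the RefSeq start (GRCh38.p14) were read for the 8 members that the promoter table held, which did not include MCL1 and BIK. Those of the 2 effectors and of BAD and BMF are shown. BAX, BAD and BMF responded differently in the 2 lines, while BAK1 rose in both. BCL2 and BCL2L11 also responded differently, and their windows, with 0 and 5 motif matches, are not shown. Each window shown runs 5′ to 3′ on the gene's own strand, and capitals mark matches on either strand to the motifs named after them. By GENCODE v44 the genes BAX, BAK1 and BMF begin inside these windows, at 48954815, 33580293 and 40108892.
BAX, chr19:48954625-48954874, plus strand: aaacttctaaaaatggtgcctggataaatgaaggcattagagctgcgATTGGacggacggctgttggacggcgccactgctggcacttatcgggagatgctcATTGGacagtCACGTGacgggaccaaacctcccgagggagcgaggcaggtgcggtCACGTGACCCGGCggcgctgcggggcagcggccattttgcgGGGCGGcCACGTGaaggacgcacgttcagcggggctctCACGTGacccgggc
BAK1, chr6:33580277-33580526, minus strand: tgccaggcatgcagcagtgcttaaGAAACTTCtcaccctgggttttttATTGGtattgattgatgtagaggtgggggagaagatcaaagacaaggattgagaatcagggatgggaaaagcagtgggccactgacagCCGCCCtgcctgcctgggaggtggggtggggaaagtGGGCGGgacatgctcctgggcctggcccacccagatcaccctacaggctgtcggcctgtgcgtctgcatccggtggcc
BAD, chr11:64284705-64284954, minus strand: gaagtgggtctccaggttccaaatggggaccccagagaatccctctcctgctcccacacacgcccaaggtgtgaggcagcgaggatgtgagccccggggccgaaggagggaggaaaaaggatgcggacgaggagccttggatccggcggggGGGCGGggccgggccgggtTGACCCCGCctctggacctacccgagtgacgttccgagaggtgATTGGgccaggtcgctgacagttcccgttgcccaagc
BMF, chr15:40108880-40109129, minus strand: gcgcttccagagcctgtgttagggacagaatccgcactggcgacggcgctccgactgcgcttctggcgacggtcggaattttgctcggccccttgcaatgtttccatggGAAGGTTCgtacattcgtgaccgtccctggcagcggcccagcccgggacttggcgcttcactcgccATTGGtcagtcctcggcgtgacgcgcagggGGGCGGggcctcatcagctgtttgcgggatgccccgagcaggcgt

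The motifs were searched on both strands in these windows and in all 27305 promoters of the table. The E-box CACGTG was in 6.49% of all promoters and, of the 8 members, in BAX alone, which held it 4 times (from -138, -93, -45 and -14 relative to the start). The antioxidant response element core TGACNNNGC was in 11.03% of promoters and in 2 members, BAD and BAX, and the match in BAX overlaps the E-box at -93. The heat shock element GAANNTTC was in 5.85% of promoters and in 2 members, BAK1 and BMF. The CCAAT box CCAAT was in 33.04% of promoters and 5 members (BAX, BAK1, BAD, BMF and BCL2L11). The GC box GGGCGG was in 42.31% of promoters and 6 members (those 5 and BID). The FOXO site TGTTTAC was in 2.98% of promoters and in BCL2L11 alone. The AP-1 site TGACTCA (4.16% of promoters), the cAMP response element TGACGTCA (1.77%) and the CHOP and ATF4 composite site TGATGCAA (0.82%) matched in 0 of the 8. These are matches of letters, and binding was not measured.

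The levels of the members were first set against each other per length, as RPKM (counts scaled by merged exon length and by the library's total count). MCL1 was the most abundant in both lines, with 38.1 to 85.9 RPKM in 22RV1 (median 52.6) and 56.1 to 109 RPKM in DU145 (median 81.1). BCL2 had the lowest median in both, with 0.80 RPKM in 22RV1 (0.58 to 1.15) and 0.13 RPKM in DU145 (0.084 to 0.16). In 22RV1 that rank depends on the merged exon length, 12612 bases for BCL2 and 4420 for BID. Without length scaling BID (4.85 to 6.34 CPM) lay below BCL2 (7.27 to 14.5 CPM) there. The order of the members between MCL1 and BCL2 differed between the lines.

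In 22RV1, BAD (median 30.7 RPKM), BAX (25.0) and BAK1 (19.9) followed MCL1, each overlapping its neighbour over the 4 libraries. BCL2L1 (10.2 RPKM) lay below all of BAK1's values and above all of those of BIK (7.38). BIK overlapped BMF (3.72 RPKM), which overlapped BCL2L11 (3.35), and BID (1.24 RPKM) overlapped BCL2. In DU145, BAK1 (30.2 RPKM), BCL2L1 (24.8) and BAD (20.6) overlapped their neighbours in that order. They were followed by BID (12.5 RPKM), then by BAX (8.25) and BIK (7.97), which overlapped, and, each below every value of the one before, by BCL2L11 (4.75) and BMF (0.59).

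**Figure D1:**
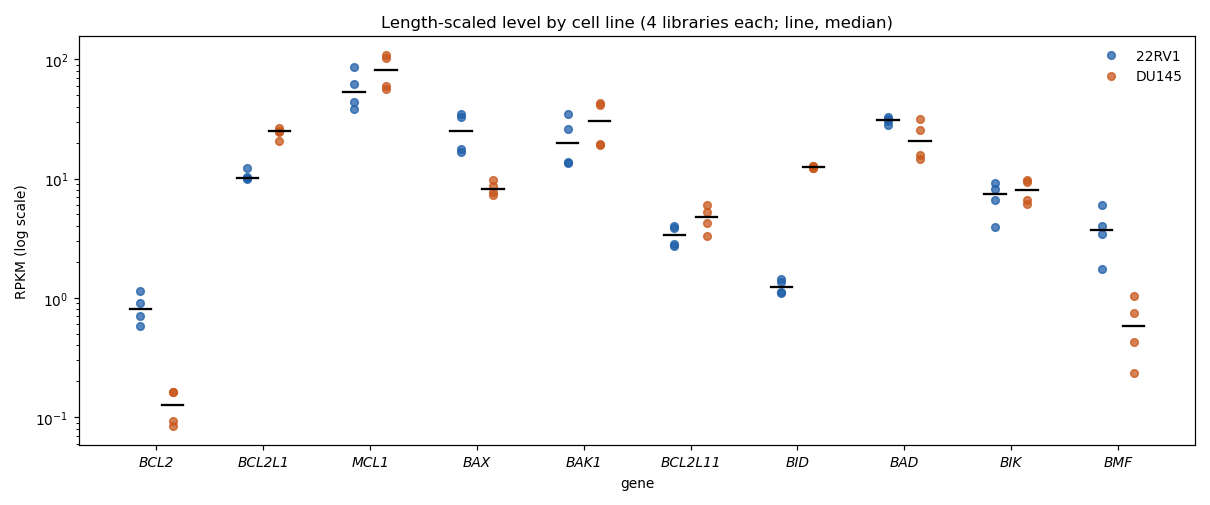
Length-scaled level of each member in RPKM on a log axis, with 1 point per library, 4 libraries per cell line and a line at the median. By the median MCL1 is highest and BCL2 lowest in both lines, and the 22RV1 and DU145 points of BID, BCL2, BMF, BCL2L1 and BAX do not overlap.

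The 2 lines differed in most members. With the 4 combinations of construct and treatment as pairs, 8 of the 10 members differed between 22RV1 and DU145 in edgeR's quasi-likelihood test (adjusted p under 0.05), against 63.2% of all 19784 genes tested. BCL2, BMF and BAX were higher in 22RV1, and BID, BCL2L1, MCL1, BAK1 and BCL2L11 were higher in DU145. The median difference, 22RV1 minus DU145 in log2, was -0.55 over the members and 0.07 over all genes tested. Scaling by total counts in place of TMM moved the median of all genes to 0.27 and that of the members to -0.35, and BAD then also differed (0.55 in log2, edgeR adjusted p = 0.0321).

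BID, the link from death receptor caspases to mitochondria, showed the greatest contrast of the 10, with 4.85 to 6.34 CPM in 22RV1 and 54.4 to 56.8 CPM in DU145. Its log2 difference was -3.53 ± 0.13 (SE, 4 pairs, edgeR adjusted p = 7.7e-07). BCL2 ran the other way, with 7.27 to 14.5 CPM in 22RV1 and 1.06 to 2.07 CPM in DU145, a log2 difference of 2.52 ± 0.37 (SE, edgeR adjusted p = 6.1e-04). BMF, a BH3-only gene linked to detachment from the matrix, had 9.59 to 32.4 CPM in 22RV1 and 1.29 to 5.65 CPM in DU145 (2.45 ± 0.50, SE, edgeR adjusted p = 0.0032). No library of one line reached into the other for any of these genes.

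The 2 effectors differed in opposite directions. BAX had 43.3 to 90.6 CPM in 22RV1 and 19.0 to 25.2 CPM in DU145, a log2 difference of 1.32 ± 0.20 (SE, edgeR adjusted p = 8.2e-04). BAK1 had 29.8 to 77.0 CPM in 22RV1 and 42.0 to 94.6 CPM in DU145, ranges that overlapped, and was lower in 22RV1 within the pairs (-0.69 ± 0.10, SE, edgeR adjusted p = 7.2e-04). BCL2L1 had 41.2 to 51.6 CPM in 22RV1 and 87.4 to 112 CPM in DU145 (-1.39 ± 0.10, SE, edgeR adjusted p = 1.4e-05). MCL1 (-0.72 ± 0.11, SE, edgeR adjusted p = 9.1e-04) and BCL2L11 (-0.67 ± 0.16, SE, edgeR adjusted p = 0.0072) were also lower in 22RV1. BAD (0.35 ± 0.18, SE, edgeR adjusted p = 0.118) and BIK (-0.43 ± 0.24, SE, edgeR adjusted p = 0.146) did not pass. Without the pair of PAGE4 PBS libraries BAD passed (0.51, edgeR adjusted p = 0.0467).

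The question whether H2O2 moved the family was first put to each pair of libraries. The values that follow are counts normalized with size factors computed within each line, so they are compared within a line only. BAK1 was over 1.5-fold higher with H2O2 in 4 of 4 pairs, the only member to pass that fold in the same direction in all of them, as 6.61% of 16595 genes did. BAK1, MCL1, BID and BIK were higher and BAD lower with H2O2 in every pair, and 49.0% of genes kept 1 direction in this way. With total counts BAD turned in the 22RV1 vector pair (0.05 in log2, against -0.05). For BID the rise in the DU145 pairs was 1.02-fold and 1.03-fold, and edgeR's fit within DU145 gave -0.02 ± 0.11 in log2 (SE). BCL2 and BMF were over 1.5-fold changed in every pair, but in opposite directions in the 2 lines.

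In 22RV1 vector cells 5 members passed 1.5-fold (4 higher, 1 lower), against 37.4% of genes, and in 22RV1 PAGE4 cells 5 did (4 higher, 1 lower), against 30.5%. In DU145 vector cells 6 passed (4 higher, 2 lower), against 40.3% of genes, and in DU145 PAGE4 cells 6 did (4 higher, 2 lower), against 41.3%. The median log2 fold change over the members was 0.25 and 0.26 in the 22RV1 pairs and 0.40 and 0.33 in the DU145 pairs, with medians of -0.02 to -0.01 over all genes. A single pair has 1 library on each side and so has no test, and the intervals given for pairs are exact Clopper-Pearson intervals that cover counting error only. Where treatments are said below not to overlap in a line, 2 libraries stand against 2. The share of all genes that separate in this way was not counted, so it is a description only.

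**Figure D2:**
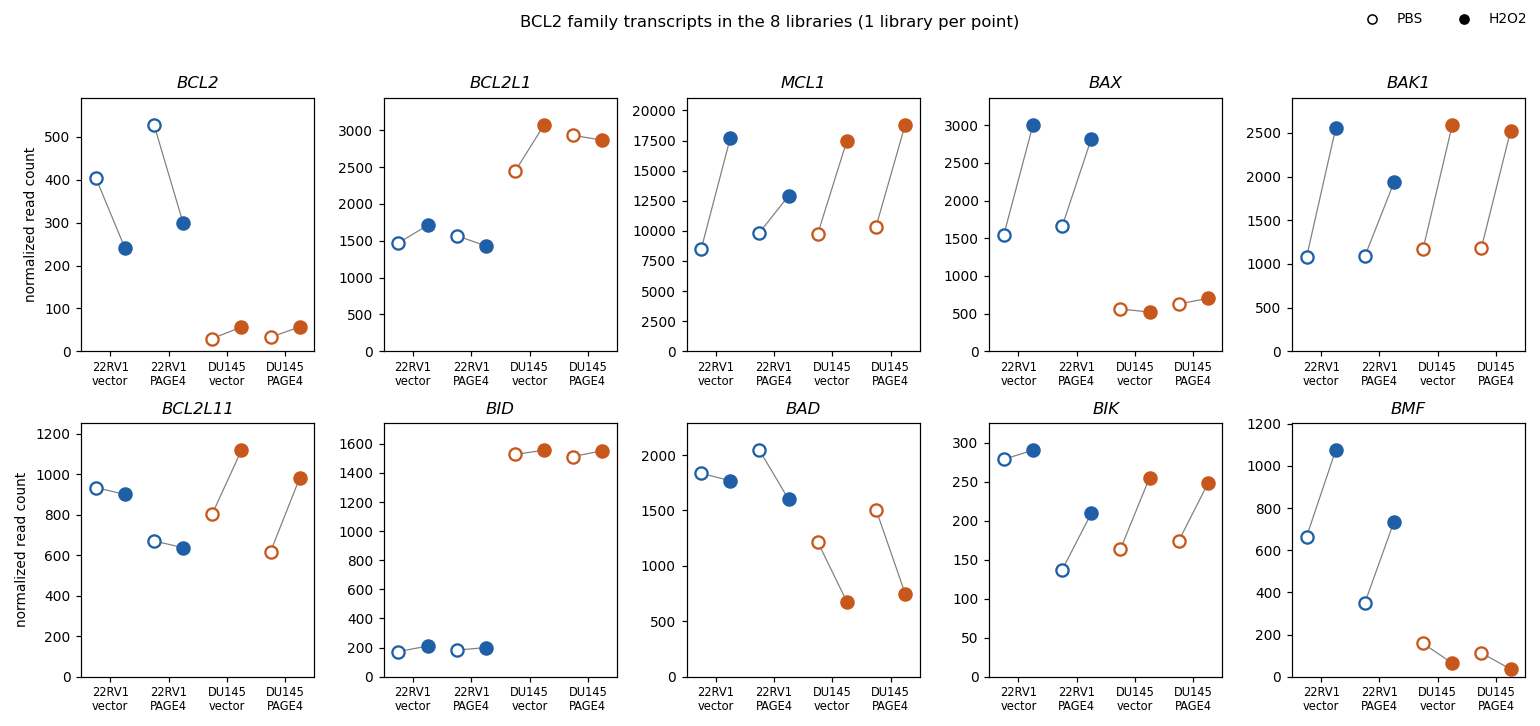
Normalized read count of each member in the 8 libraries (1 point per library, axes from 0, PBS open and H2O2 filled, grey lines joining a pair). BAK1 rises in all 4 pairs, whereas BCL2, BAX, BMF and BAD behave differently in the 22RV1 (blue) and DU145 (orange) pairs, and heights are comparable within a line only.

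Among the anti-apoptotic genes, MCL1 rose. Its normalized count went from 8469 to 17709 in 22RV1 vector cells, from 9854 to 12907 in 22RV1 PAGE4 cells, from 9750.2 to 17475 in DU145 vector cells and from 10350.1 to 18807 in DU145 PAGE4 cells. All H2O2 libraries lay above all PBS libraries of their line, and the 22RV1 PAGE4 pair had the smallest fold (1.31, against 1.79 to 2.09 in the others). Across the 4 pairs the log2 fold change was 0.76 ± 0.11 (SE, edgeR quasi-likelihood adjusted p = 0.0053).

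BCL2, the founding member, moved in opposite directions. It went from 405 to 241 and from 528 to 299 normalized counts in the 22RV1 vector and PAGE4 cells, and from 29.7 to 56.7 and from 32.9 to 56.9 in the DU145 vector and PAGE4 cells. The H2O2 and PBS libraries did not overlap in either line, and the DU145 values rest on 32 to 54 raw counts. The common log2 fold change was -0.10 ± 0.34 (SE, edgeR adjusted p = 0.855).

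BCL2L1, whose protein BCL-XL holds BAX and BAK1 in check, stayed within 1.26-fold in every pair. Its normalized count went from 1470.1 to 1709 and from 1568 to 1429 in the 22RV1 vector and PAGE4 cells, and from 2441 to 3073 and from 2930 to 2863 in the corresponding DU145 cells. It was higher with H2O2 in the 2 vector pairs and lower in the 2 PAGE4 pairs. The common log2 fold change was 0.07 ± 0.10 (SE, edgeR adjusted p = 0.656), and its difference between PAGE4 and vector cells was -0.35 ± 0.20 (SE, edgeR adjusted p = 1).

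Of the 2 effectors, BAK1 rose in both lines. Its normalized count went from 1078 to 2553 in 22RV1 vector cells, from 1089 to 1935 in 22RV1 PAGE4 cells, from 1175 to 2593 in DU145 vector cells and from 1186 to 2524 in DU145 PAGE4 cells. The treatments did not overlap in either line, and every H2O2 value was at least 1.78-fold above its PBS partner. Across the pairs the log2 fold change was 1.05 ± 0.10 (SE, edgeR adjusted p = 0.0013), the lowest p of the 10.

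BAX rose in 22RV1 cells, from 1546 to 3004 normalized counts with vector and from 1658 to 2819 with PAGE4. In DU145 it went from 561 to 520.5 with vector and from 628 to 702 with PAGE4, values that overlapped between treatments. The common log2 fold change was 0.43 ± 0.19 (SE, edgeR adjusted p = 0.142).

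Among the BH3-only genes, BAD fell. BAD, which antagonizes BCL-XL when unphosphorylated, went from 1835 to 1768 and from 2044 to 1600.3 normalized counts in the 22RV1 vector and PAGE4 cells. In DU145 it went from 1216 to 677 with vector and from 1508 to 750.0 with PAGE4, folds of 1.80 and 2.01 against 1.04 and 1.28 in 22RV1. The treatments did not overlap in either line, but in CPM those of 22RV1 did (PBS 51.4 and 56.0, H2O2 53.3 and 47.7). Its common log2 fold change was -0.59 ± 0.17 (SE, edgeR adjusted p = 0.0450). The call was lost with total counts (-0.50, edgeR adjusted p = 0.0891) and without the 22RV1 PAGE4 pair (-0.65, adjusted p = 0.0593), the DU145 PAGE4 pair (-0.43, adjusted p = 0.145) or the DU145 vector pair (-0.49, adjusted p = 0.158). GPR137, which shares exon with BAD, was also lower with H2O2 in raw counts in each pair, as the total counts were, and its part in the result was not tested.

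BMF rose in 22RV1, from 664 to 1075 with vector and from 350.1 to 736 with PAGE4, and fell in DU145, from 158 to 64.0 and from 113 to 35.8 normalized counts. The groups did not overlap in DU145, and in 22RV1 they did not overlap either, since the PAGE4 H2O2 value (736) lay above the vector PBS value (664). The common log2 fold change was -0.18 ± 0.47 (SE, edgeR adjusted p = 0.821).

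BCL2L11, whose product BIM binds all the anti-apoptotic proteins, went from 934 to 901 and from 670.5 to 637 normalized counts in the 22RV1 vector and PAGE4 cells, and from 805 to 1119 and from 618 to 982 in the DU145 vector and PAGE4 cells. In DU145 the treatments did not overlap, whereas in 22RV1 they did. BIK, a BH3-only gene of the endoplasmic reticulum, went from 279 to 290.2 and from 137 to 209 in the 22RV1 cells and from 163 to 255 and from 174 to 248 in the DU145 cells. BID went from 173 to 210.2 and from 183 to 200.0 in the 22RV1 cells and from 1527 to 1556 and from 1513 to 1553 in the DU145 cells. The treatments overlapped for BIK in 22RV1 but not in DU145, and for BID in neither line. The counting interval of BID excluded 0 in 1 of 4 pairs. None of these 3 passed the common test, with log2 fold changes of 0.23 ± 0.15 for BCL2L11 (SE, edgeR adjusted p = 0.304), 0.43 ± 0.17 for BIK (SE, edgeR adjusted p = 0.119) and 0.09 ± 0.11 for BID (SE, edgeR adjusted p = 0.599).

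In all, 3 of the 10 members (MCL1 and BAK1 higher, BAD lower) passed the common H2O2 test, and 23.0% of all genes tested did. The median log2 fold change was 0.16 over the members and -0.04 over all genes. Of all genes, 2026 were higher and 2519 lower with TMM, and 2825 were higher and 1816 lower with total counts, where the members called were MCL1 and BAK1, both higher.

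**Figure D3:**
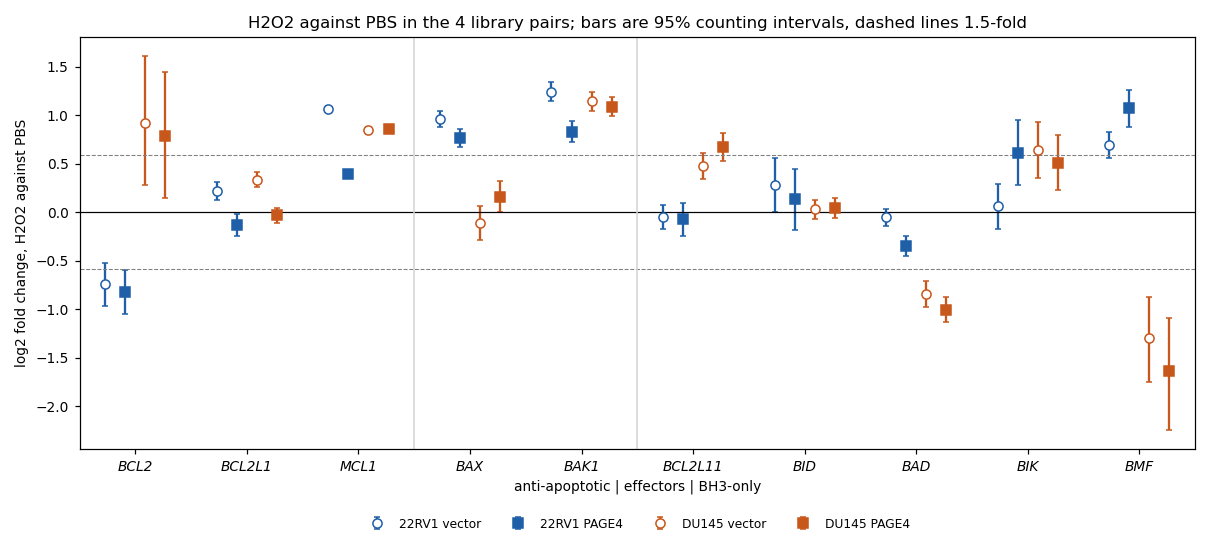
Log2 fold change of H2O2 against PBS for each member in the 4 pairs, with bars for the 95% Clopper-Pearson counting interval and dashed lines at 1.5-fold. BAK1 lies above the upper dashed line in all 4 pairs (0.83 to 1.24), and BCL2 and BMF lie on opposite sides of 0 in 22RV1 and DU145.

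The effect of H2O2 differed between the 2 lines for 5 members (edgeR's quasi-likelihood test of the difference, adjusted p under 0.05), where 19.5% of all genes tested differed. In log2, 22RV1 minus DU145, the difference was 2.37 ± 0.28 for BMF (SE, edgeR adjusted p = 5.0e-06) and 0.88 ± 0.16 for BAX (SE, edgeR adjusted p = 4.7e-04). It was 0.77 ± 0.15 for BAD (SE, edgeR adjusted p = 0.0013) and -1.60 ± 0.34 for BCL2 (SE, edgeR adjusted p = 0.0025). The difference for BCL2L11 was -0.59 ± 0.17 (SE, edgeR adjusted p = 0.0192), and that call was lost without the DU145 PAGE4 pair (-0.50, adjusted p = 0.203) or the DU145 vector pair (-0.68, adjusted p = 0.0700).

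For the other 5 members the test of the difference did not pass. BAK1 was the closest to 0, with -0.03 ± 0.15 (SE, edgeR adjusted p = 0.927), followed by BCL2L1 with -0.06 ± 0.15 (SE, edgeR adjusted p = 0.839) and MCL1 with -0.08 ± 0.15 (SE, edgeR adjusted p = 0.767). Without the 22RV1 vector pair the difference for MCL1 was -0.46 (edgeR adjusted p = 0.0017), a call that rests on the single 22RV1 pair left, assumed to vary like the others.

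Taken within each line, 5 members passed in 22RV1, where 32.1% of genes passed, and 6 passed in DU145, where 41.9% did. In 22RV1 the members that rose were BAK1 (1.04 ± 0.11 in log2), BMF (0.87 ± 0.17), BAX (0.86 ± 0.11) and MCL1 (0.72 ± 0.10), and BCL2 fell (-0.79 ± 0.20). The edgeR adjusted p ran up to 0.0053. Here ± is the SE of an effect over 2 pairs, with its variance taken from the fit of all 8 libraries. In DU145 the members that rose were BAK1 (1.07 ± 0.10), BCL2 (0.81 ± 0.28), MCL1 (0.80 ± 0.10) and BCL2L11 (0.52 ± 0.12), and those that fell were BMF (-1.5 ± 0.22) and BAD (-0.98 ± 0.11), with an edgeR adjusted p up to 0.0248. The rise of BCL2 in DU145 was the least firm, with adjusted p = 0.0555 by the Wald test of DESeq2 and, by edgeR, 0.113 without the DU145 PAGE4 pair and 0.189 without the DU145 vector pair. BIK did not pass in DU145 (0.53 ± 0.21, edgeR adjusted p = 0.0509), and it passed when scaled by total counts (0.59, edgeR adjusted p = 0.0287) or DESeq2 size factors (0.55, edgeR adjusted p = 0.0398). The rise of BCL2L11 had an edgeR adjusted p of 0.102 without the DU145 PAGE4 pair. In 22RV1 the summed level of the 22RV1 markers was also lower with H2O2, as given above, and its part in these results was not tested.

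The raw counts of BAX were also divided by those of BCL2 and of BAK1 within each library, which needs no normalization. These ratios are not scaled for gene length, so only their changes between libraries are read. BAX to BCL2 went from 3.82 (interval 3.46 to 4.23) to 12.5 (10.95 to 14.2) in 22RV1 vector cells and from 3.14 (2.86 to 3.46) to 9.44 (8.23 to 10.9) in 22RV1 PAGE4 cells. In DU145 it went from 18.9 (13.2 to 27.9) to 9.19 (6.93 to 12.4) with vector and from 19.1 (13.6 to 27.6) to 12.3 (9.34 to 16.6) with PAGE4. The ratio was thus higher with H2O2 in both 22RV1 pairs, by 1.71 and 1.59 in log2, and lower in both DU145 pairs, with log2 changes of -1.04 and -0.63, and the counting intervals overlapped only in the DU145 PAGE4 pair.

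BAX to BAK1 went from 1.43 to 1.18 and from 1.52 to 1.46 in the 22RV1 vector and PAGE4 cells, and from 0.48 to 0.20 and from 0.53 to 0.28 in the DU145 vector and PAGE4 cells. It was lower with H2O2 in 4 of 4 pairs, with log2 changes of -0.29 and -0.06 in 22RV1 and of -1.25 and -0.93 in DU145. The counting intervals overlapped in the 22RV1 PAGE4 pair and in no other.

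**Figure D4:**
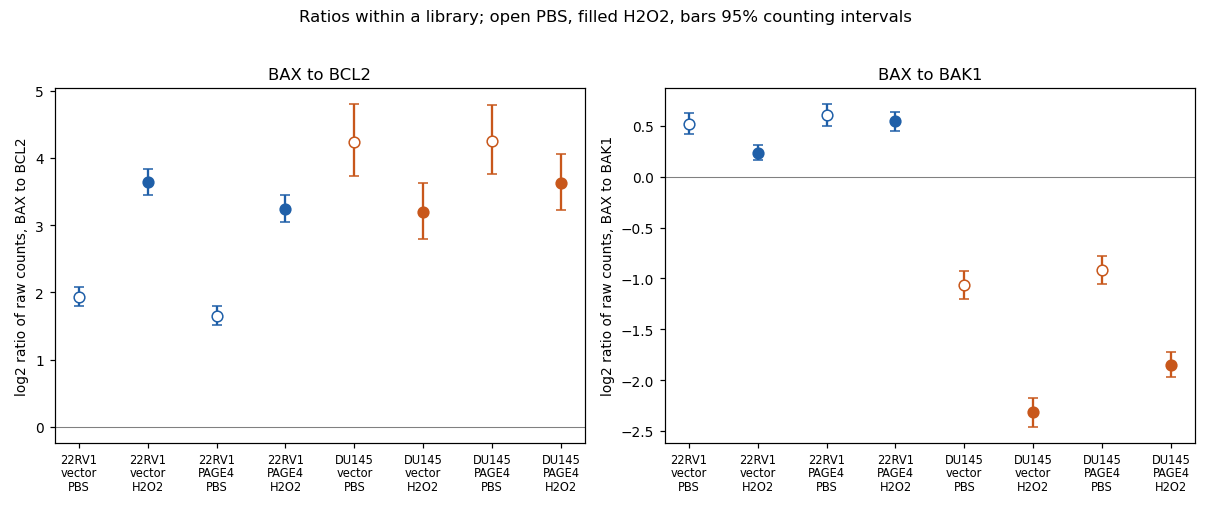
Log2 ratio of the raw counts of BAX to BCL2 (left) and of BAX to BAK1 (right) in each library, PBS open and H2O2 filled, 22RV1 blue and DU145 orange, with 95% Clopper-Pearson counting intervals. BAX to BCL2 moves up with H2O2 in 22RV1 (by 1.71 and 1.59) and down in DU145 (-1.04 and -0.63).

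The study asked what PAGE4 changes in cells under oxidative stress. In edgeR's quasi-likelihood test across the 4 pairs of PAGE4 against vector, 0 of 10 members and 27 genes in all (0.136%) passed, with 1587 genes at an unadjusted p under 0.05, BCL2L11 and BMF among them. With the Wald test of DESeq2, 89 genes and 2 members passed, BMF (-0.69, adjusted p = 0.0082) and BCL2L11 (-0.39, adjusted p = 0.0425), both lower with PAGE4. The median log2 fold change was -0.02 over the members and -0.01 over all genes.

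BMF was lower with PAGE4 in 4 of 4 pairs, by 1.90-fold in 22RV1 with PBS, 1.46-fold in 22RV1 with H2O2, 1.40-fold in DU145 with PBS and 1.78-fold in DU145 with H2O2. Its common log2 fold change was -0.70 ± 0.14 (SE, edgeR adjusted p = 0.134). BCL2L11 was lower in 4 of 4 pairs, by 1.14-fold to 1.41-fold (-0.40 ± 0.09, SE, edgeR adjusted p = 0.226). BCL2 was 1.11-fold to 1.31-fold higher in 3 pairs and had 54 raw counts with either construct in DU145 with H2O2, where its sign turned with the scaling (log2 0.0055, and -0.0145 with total counts). Its common log2 fold change was 0.23 ± 0.17 (SE, edgeR adjusted p = 0.792). Over all genes, 16.6% kept 1 direction in the 4 pairs.

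Taken by pair, BIK and BMF were over 1.5-fold lower with PAGE4 in 22RV1 with PBS, where 19.7% of genes passed that fold, and 0 members passed in 22RV1 with H2O2 (23.2% of genes). In DU145 0 members passed with PBS (15.3% of genes), and BMF was over 1.5-fold lower with H2O2 (15.2% of genes). No member passed that fold in all 4 pairs, as 0.229% of genes did.

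**Figure D5:**
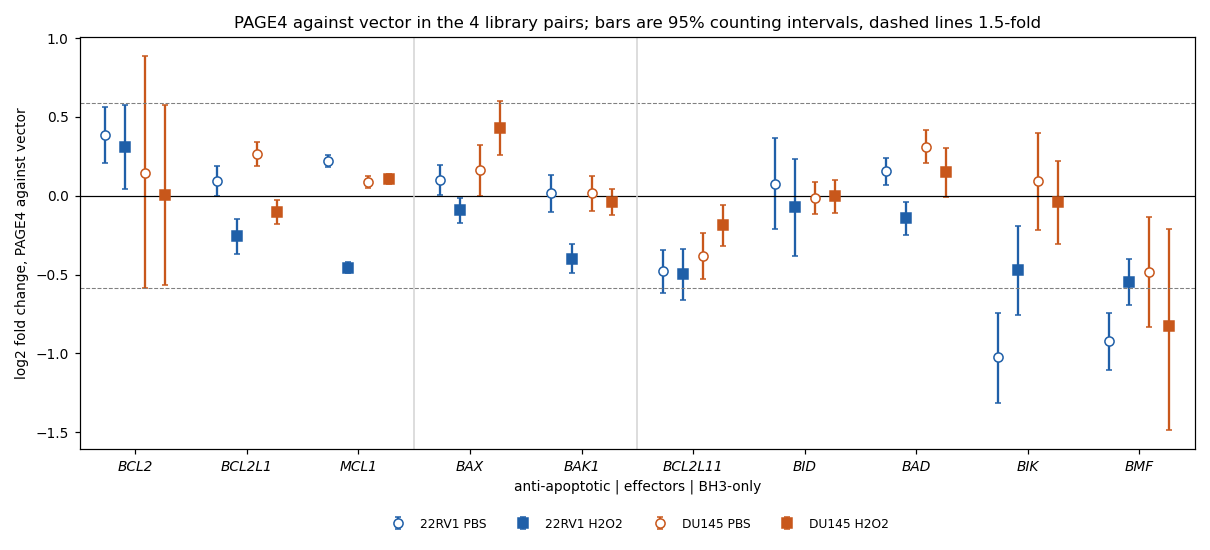
Log2 fold change of PAGE4 against vector for each member in the 4 pairs, with bars for the 95% Clopper-Pearson counting interval and dashed lines at 1.5-fold. BMF (-0.92 to -0.48) and BCL2L11 (-0.50 to -0.19) lie below 0 in all 4 pairs, and BIK is 2.03-fold lower in 22RV1 with PBS.

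Within 22RV1, 3 members were lower with PAGE4 in edgeR's test, where 5.20% of genes passed. In either line, both pairs compare the same PAGE4 culture with the same vector culture, so they do not replicate PAGE4. The within-line fits were added after seeing the data. They were BMF (-0.74 ± 0.17, SE from the fit of all 8 libraries, edgeR adjusted p = 0.0100), BCL2L11 (-0.50 ± 0.12, SE, edgeR adjusted p = 0.0176) and BIK (-0.76 ± 0.21, SE, edgeR adjusted p = 0.0398). Without the 22RV1 PBS pair, BMF (-0.53, adjusted p = 0.114) and BIK (-0.46, adjusted p = 0.357) no longer passed, and without the 22RV1 H2O2 pair BCL2L11 did not (-0.49, adjusted p = 0.0593). Without the 22RV1 PBS pair MCL1 (-0.44, edgeR adjusted p = 4.8e-04) and BAK1 (-0.38, edgeR adjusted p = 0.0394) passed as lower, beside BCL2L11 (-0.48, edgeR adjusted p = 0.0483), in a fit with a single 22RV1 pair left. BIK also did not pass without the DU145 H2O2 pair (-0.76, adjusted p = 0.0557) or with the Wald test of DESeq2 (-0.74, adjusted p = 0.148).

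Within DU145, 0 members passed in edgeR's test, where 64 genes in all (0.323%) did and 1627 genes had an unadjusted p under 0.05, and 0 members passed with the Wald test of DESeq2. BMF was at -0.62 ± 0.22 (SE, edgeR adjusted p = 0.390) and BCL2L11 at -0.29 ± 0.12 (SE, edgeR adjusted p = 0.510).

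The effect of PAGE4 was not shown to differ between the lines for any member. In edgeR's test of that difference 0 of 10 members and 2.49% of genes passed, with 2760 genes at an unadjusted p under 0.05. Of the members, BIK alone had an unadjusted p under 0.05 (22RV1 minus DU145, -0.77 ± 0.30, SE, edgeR adjusted p = 0.224), and 0 members passed with the Wald test of DESeq2. Without the 22RV1 PBS pair the difference passed for MCL1 (-0.54, edgeR adjusted p = 6.9e-04).

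Whether PAGE4 altered the response of the family to H2O2 was tested directly. In edgeR's quasi-likelihood test of the difference in H2O2 effect between PAGE4 and vector cells, 0 of 19784 genes (0.00%) and 0 members passed, with 52 genes at an unadjusted p under 0.05, and the Wald test of DESeq2 called 0 genes with 17 at an unadjusted p under 0.05. BCL2L1 (-0.35 ± 0.20, SE) and MCL1 (-0.32 ± 0.24, SE) were the members with the lowest unadjusted p, and both had an edgeR adjusted p of 1. That fit has no term for the H2O2 difference between the lines, which stays in its error (SE of 0.20 to 1.07 in log2 over the members). With that term added, an alternative chosen after seeing the data, the SE was 0.12 to 0.37, 8 genes passed by edgeR (674 at an unadjusted p under 0.05) and 3 by the Wald test of DESeq2, with 0 members by either. MCL1 (-0.32 ± 0.12, unadjusted p = 0.0131) and BCL2L1 (-0.35 ± 0.14, unadjusted p = 0.0139) then had the lowest p of the members by edgeR's quasi-likelihood test, with an adjusted p of 1.00 for both.

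Of 65 other genes of the apoptosis pathway, 61 had counts high enough to be tested. With H2O2, 17 rose and 6 fell across the 4 pairs, where 23.0% of all genes passed. The death receptor TNFRSF10B (1.36 ± 0.11, SE, edgeR adjusted p = 9.3e-04), the stress-induced transcription factor DDIT3 (1.505 ± 0.14, SE, edgeR adjusted p = 0.0013) and the BH3-only gene HRK (1.47 ± 0.18, SE, edgeR adjusted p = 0.0028) rose. The inhibitor of apoptosis BIRC5 (-1.21 ± 0.10, SE, edgeR adjusted p = 9.9e-04) and the mitochondrial factor AIFM1 (-0.68 ± 0.09, SE, edgeR adjusted p = 0.0030) fell.

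By group, 3 of 10 other BCL2 family genes tested rose and 0 fell, and of 11 caspase and apoptosome genes 1 rose and 2 fell. Of 9 inhibitors of apoptosis and their antagonists 3 rose and 1 fell, and of 8 mitochondrial death factors and channels 0 rose and 2 fell. Of 9 death receptors and adaptors 3 rose and 0 fell, and of 14 upstream regulators of the family 7 rose and 1 fell. The shares of these groups are to be read against the same 23.0%. The median log2 fold change over the 61 genes was 0.10, against -0.04 over all genes.

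The H2O2 effect differed between the lines for 24 of the 61 genes, 14 of them with a higher value in 22RV1 and 10 with a lower one, where 19.5% of all genes differed. Among those with the lowest p were the receptors TNFRSF1A (1.43 ± 0.11, SE, edgeR adjusted p = 3.2e-08) and FAS (2.28 ± 0.26, SE, edgeR adjusted p = 3.5e-06) and the transcription factors MYC (-1.42 ± 0.15, SE, edgeR adjusted p = 1.9e-06) and STAT3 (1.01 ± 0.12, SE, edgeR adjusted p = 4.0e-06).

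Within 22RV1, 21 of the 61 rose and 8 fell with H2O2 (32.1% of all genes passed), led by BIRC5 (-1.32 in log2), TNFRSF10B (1.27), FAS (2.14), the BH3-only gene BBC3 (1.82) and DDIT3 (1.22), with an edgeR adjusted p up to 3.2e-08. Within DU145, 26 rose and 19 fell (41.9% of all genes passed), led by JUN (2.45), DDIT3 (1.80), TNFRSF10B (1.46), TNFRSF10A (1.27) and BIRC5 (-1.10), with an edgeR adjusted p up to 2.3e-08. With PAGE4, 0 of the 61 passed in edgeR's common test, in the difference between the lines or in the difference in H2O2 effect. Within 22RV1, 0 of the 61 were higher and 1 was lower with PAGE4 in edgeR's test (5.20% of all genes passed). Within DU145, 1 was higher and 0 were lower (0.323% of all genes passed). The gene higher in DU145 was the adaptor FADD (0.79, edgeR adjusted p = 0.0431). Between the lines, 15 were higher in 22RV1 and 22 in DU145 (63.2% of all genes differed), led by CASP10 (-3.95 in log2), TNFRSF10C (-6.26), CASP8 (-2.15), FBXW7 (1.64) and HRK (-3.01), with an edgeR adjusted p up to 4.0e-05.

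The genes whose pattern over the 8 libraries was most like that of BAK1, after subtracting the mean of each line from the log2 CPM, were PMS2CL (Pearson r = 0.9994), PRNP (0.9991), TOX4 (0.9987), LINC00662 (0.9980) and PPP1R15A (0.9973). They were picked from 13469 genes with a mean of at least 1 CPM in each line, and the libraries share their treatment, so r is given as a description only. Their common log2 fold changes with H2O2 ran from 0.48 for TOX4 to 2.58 for PPP1R15A, with BAK1 at 1.05.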

How the data were processed

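RNA-seq of 8 libraries (2 prostate cancer cell lines, 2 constructs, 2 treatments) was analysed. The deposited values are unnormalized read counts by gene, with a table for each line. According to the submitters' processing notes the tools were HISAT2 2.1.0 and featureCounts 1.6.0, on GRCh38 (hg38), and the annotation and strand setting are not given in the sources used here. Unused per-sample columns numbered 0.

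edgeR 4.0.16 in R 4.3.3 tested the 8 libraries together by quasi-likelihood (TMM, filterByExpr by line, pairs as blocks) over 19784 genes, with Benjamini-Hochberg adjusted p under 0.05. SE is the log2 fold change divided by the root of F. p-values measure the spread of pairs around the effect fitted (common, by line or by construct), since no condition has a replicate. The variance of each gene is moderated towards that of all genes, so the p-values also rest on variance shared over genes. DESeq2 1.42.0 gave within-line size factors and the alternative Wald test. Pair folds used a pseudocount of 0.5, a limit of 1.5-fold and a mean of at least 10 normalized counts. Exon lengths came from GENCODE v44. Intervals are 95% exact Clopper-Pearson. Of the fits, only the common H2O2 fit was tried on simulated data, which had the same spread for all genes, unlike the real data. All 10 members were named, of the other listed genes the up to 5 with the lowest adjusted p per fit, and the 5 genes most like the member with the lowest p. Alternatives were other scalings, the Wald test, no filter, other blocks, each pair left out and other fold limits. Within-line effects, the BAX to BAK1 ratio and a construct fit with an H2O2 by line term were added after seeing the data. Results for some listed genes are not reported here. Members and lists were chosen with earlier results of these data known.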

Additional observations from a re-analysis of the deposited data

Results flagged for a closer look

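The H2O2 effect differed between the lines, by edgeR's test of the difference, for 5 members, given as log2 fold change in 22RV1 minus that in DU145. BCL2 differed by -1.60, BCL2L11 by -0.59, BMF by 2.37, BAX by 0.88 and BAD by 0.77. The effects had opposite signs in the 2 lines in every pair for BCL2 and BMF. For BAD the fold was larger in DU145, and in the 22RV1 vector pair its sign turned with total counts (0.05 against -0.05). No condition had the 4 libraries that a check for single outlying libraries needs.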

How the results depend on the processing

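The members called were the same in number, within 1.5 times, under every alternative of the H2O2 and cell line fits, and no member called in a fit changed direction in it under any alternative run. For H2O2 by construct, 1 gene passed without the filter on low counts, 8 with an H2O2 by cell line term added and 3 with that term and the Wald test. For PAGE4 across pairs, 27 genes became 89 with the Wald test of DESeq2, 483 without the filter and 1 with cell line as the only block, and 0 members became 2 with the Wald test and 2 without the filter (BMF and BCL2L11). For PAGE4 by line 493 genes became 806, and for PAGE4 in DU145 64 became 217, without the filter. BCL2L1 turned sign in the common PAGE4 fit with DESeq2 size factors (0.0008) and the Wald test (0.0005). BAX passed in the common H2O2 fit without the filter (0.42, edgeR adjusted p = 0.0243). With a 2-fold limit, the members past it with H2O2 were 2 in 22RV1 vector, 1 in 22RV1 PAGE4, 2 in DU145 vector and 3 in DU145 PAGE4 cells. Of all genes, 3664 and 2885 of 20264 passed it in these 22RV1 pairs, and 3289 and 3351 of 18088 in the DU145 pairs. With PAGE4, 1 member passed in 22RV1 with PBS (1853 of 20264 genes) and 0 in DU145 with H2O2 (1160 of 18088 genes).

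Leaving out 1 pair at a time gave 1931 to 3902 genes for the common H2O2 effect (low without DU145 vector, 22RV1 vector or DU145 PAGE4), 2041 to 4222 for H2O2 by line (low without DU145 PAGE4 or DU145 vector) and 0 to 1 for H2O2 by construct (1 without DU145 vector). It gave 9 to 40 for PAGE4 (low without 22RV1 PBS), 192 to 1210 genes and 0 to 1 members for PAGE4 by line (high without 22RV1 PBS, low without either DU145 pair), 3699 to 6045 for H2O2 in 22RV1 (low without its vector pair), 5169 to 9185 for H2O2 in DU145 (low without either DU145 pair) and 12 to 351 for PAGE4 in DU145 (low without either DU145 pair, high without either 22RV1 pair). Members not called turned sign in the common H2O2 fit (BCL2 -0.38 to 0.22, BCL2L1 -0.0037 to 0.16, BMF -0.65 to 0.25) and the common PAGE4 fit (BCL2L1 -0.10 to 0.080, MCL1 -0.084 to 0.13, BID -0.022 to 0.0089). A lone pair left in a line is assumed to vary like the other line's. Causes were not tested. Counts of BCL2 in DU145 (32 to 54) limit its precision.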
